A study of Homo sapiens with 4 samples.

Results

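The 10 genes described here encode subunits of AP-1, a family of transcription factors, in OCI-AML3 cells. They were chosen by name, as the rows of the deposited count table for FOS, FOSB, FOSL1, FOSL2, JUN, JUNB, JUND, BATF, BATF3 and MAFF, and they are 10 of 67062 rows. The choice, like that of the gene lists set around them, was made with earlier results of these data known. OCI-AML3 is an established cell line of human acute myeloid leukaemia with the mutation named NPM1c+. The PIG-LONA cultures (2 libraries) had been transduced with a retroviral pMSCV-PIG vector carrying the long noncoding RNA LONA, and the PIG-EMPTY control cultures (2 libraries) with the same vector lacking an insert. Both vectors also carry a puromycin resistance gene and GFP, and GFP+ cells were sorted in both groups, so all 4 cultures had been infected, sorted and kept in the same medium. The 2 libraries of a group come from independent transductions of this 1 line, LONA was driven from the vector and not from its own locus, and the title of the series concerns delayed myeloid differentiation. The level of LONA was not analysed here.

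AP-1 factors bind DNA as dimers through a basic region and a leucine zipper. FOS proteins cannot pair with themselves and need a JUN partner, whereas JUN proteins can also pair with each other, and the classical dimer recognises the sequence TGANTCA. BATF proteins and small MAF proteins such as MAFF have the same zipper without a separate activation domain, so that their dimers can act as repressors or rely on further partners. In myeloid cells AP-1 genes are induced by growth factor and stress signals, and JUN and FOS are classically associated with monocytic and macrophage differentiation.

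Total counts ran from 30181550 to 38358442 in PIG-LONA and from 29819572 to 32350832 in PIG-EMPTY. A level in CPM is the number of counts of a gene in every 1000000 counts of its library after TMM scaling, and a log2 fold change is followed by its SE after the ± sign. Of the genes measured, 15918 had enough counts to test, and 6.44% of them differed at an adjusted p under 0.05 (edgeR quasi-likelihood test, 2.93% higher and 3.51% lower in PIG-LONA). Of the markers fixed for the line, CD33, ANPEP, SPI1, PTPRC, LYZ, CEBPA, FLT3 and NPM1 were all measured. MPO, the remaining marker, had the fewest counts of them all, with 63 and 107 in PIG-LONA and 83 and 84 in PIG-EMPTY. These 9 markers summed to 2998 and 2939 CPM in PIG-LONA and 3037 and 2998 CPM in PIG-EMPTY, and their median log2 fold change was -0.10. Most of each sum is NPM1, with 1813 and 1769 CPM in PIG-LONA and 1767 and 1771 CPM in PIG-EMPTY. ANPEP, LYZ and SPI1 were lower and FLT3 higher in PIG-LONA, so that 44.4% of the markers were called, beside 6.44% of all tested genes. LYZ was uneven in the controls, at 26.0 and 27.1 CPM in PIG-LONA, against 52.9 and 34.2 CPM in PIG-EMPTY. The calls of LYZ and SPI1 did not hold with DESeq2 (adjusted p = 0.261 for LYZ and 0.0992 for SPI1) or without the filter on low counts (edgeR adjusted p = 0.0937 for LYZ and 0.158 for SPI1), and that of SPI1 also not when either PIG-EMPTY library or the genes of chromosome 6 were left out. Of 11 markers of other cell types, CD3E, MS4A1, HBB and EPCAM were at 0 in every library, and besides PECAM1, which myeloid cells also express, none exceeded 22 counts.

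FOS and BATF fell in PIG-LONA, to 0.767 and 0.825 of their PIG-EMPTY levels in that order. Of the 10 members 0 were called higher, beside 2.93% of all tested genes. All 10 members passed the filter on low counts. The 2 that passed the test in the downward direction compare with 3.51% of all tested genes. The other 8 members had log2 fold changes between -0.31 and 0.10, and their values stand below with the interval that these 4 libraries allow. In both PIG-LONA libraries FOS, FOSB, JUNB and BATF lay below both PIG-EMPTY libraries, against 24.4% of all tested genes, and FOSL1 lay above both, against 23.7%. The median log2 fold change was -0.09 over the members and 0.00 over all tested genes. In RNA from whole cultures, fewer cells that express a gene and less of its RNA per cell cannot be told apart.

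**Figure D1:**
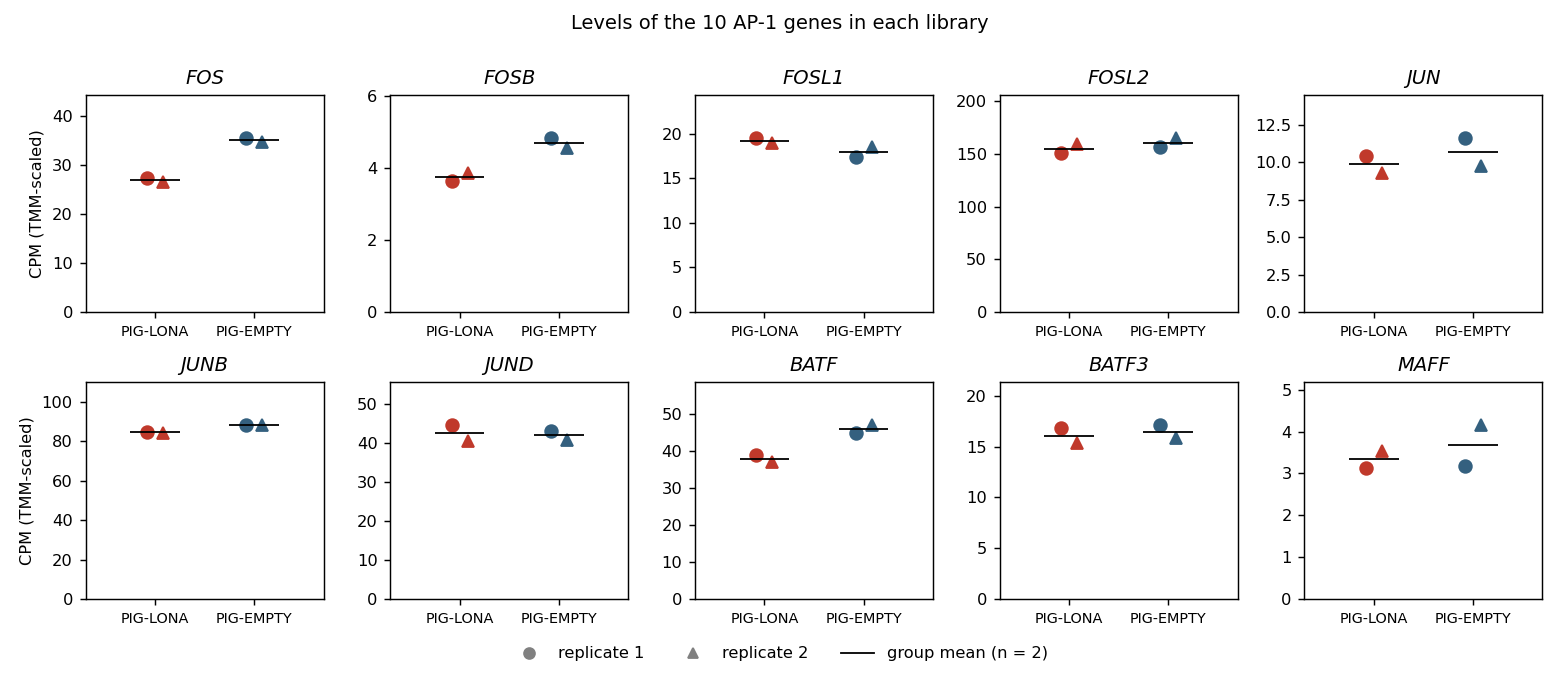
TMM-scaled CPM of each AP-1 gene (vertical axes, each from 0 and with its own range) in the 2 PIG-LONA and 2 PIG-EMPTY libraries; circles are replicate 1, triangles replicate 2 and lines the group means. The groups do not overlap for FOS, FOSB, FOSL1, JUNB and BATF. Over all tested genes the groups do not overlap with PIG-LONA lower in 24.4% and higher in 23.7%. FOS is at 27.3 and 26.6 CPM in PIG-LONA and 35.5 and 34.8 CPM in PIG-EMPTY.

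FOS, the founding FOS-type subunit and an immediate early gene whose transcript is made and destroyed quickly, lies on chromosome 14 (75278774 to 75282230, GRCh38, plus strand) in 3 exon blocks. It had 818 and 1022 counts in the PIG-LONA libraries and 1057 and 1129 counts in the PIG-EMPTY libraries. Scaled to depth these were 27.3 and 26.6 CPM in PIG-LONA, against 35.5 and 34.8 CPM in PIG-EMPTY. The groups did not overlap, and the libraries of a group differed by less than 1 CPM. The group means were 27.0 ± 0.53 CPM in PIG-LONA and 35.1 ± 0.52 CPM in PIG-EMPTY (SD, n = 2 each), a fold of 0.767 (log2 fold change -0.38 ± 0.06, SE; edgeR adjusted p = 0.000244). Over the 4 pairings of a PIG-LONA with a PIG-EMPTY library the fold ran from 0.749 to 0.786. FOS kept its call under all 15 alternative settings that were run, with log2 fold changes from -0.40 to -0.36.

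FOSB, a close relative of FOS that is induced by the same signals, was scarce. This gene of chromosome 19 (45467995 to 45475179, plus strand) had 109 and 149 counts in PIG-LONA and 144 and 148 counts in PIG-EMPTY. Its levels were 3.64 and 3.87 CPM in PIG-LONA, against 4.84 and 4.56 CPM in PIG-EMPTY, again without overlap. The log2 fold change of -0.31 ± 0.14 (SE) had a size near that of FOS but did not pass (edgeR adjusted p = 0.237), and its 95% interval, which takes no account of the number of genes tested, ran from -0.61 to -0.02. FOSB lies within the span of ERCC1 on the opposite strand, with 0 exonic bases in common in the annotation.

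The RefSeq promoter windows of FOS and FOSB (GRCh38.p14) are shown because these immediate early genes share the order of their promoter elements. Each line gives the 250 bases before the transcription start, 5′ to 3′, with matches to TGACGT (the core of a cyclic AMP response element) and to TATAAA in capitals. The start is that of RefSeq, which for FOS lies within the gene span given above from another annotation (GENCODE).
FOS, chr14:75278578-75278827, plus strand: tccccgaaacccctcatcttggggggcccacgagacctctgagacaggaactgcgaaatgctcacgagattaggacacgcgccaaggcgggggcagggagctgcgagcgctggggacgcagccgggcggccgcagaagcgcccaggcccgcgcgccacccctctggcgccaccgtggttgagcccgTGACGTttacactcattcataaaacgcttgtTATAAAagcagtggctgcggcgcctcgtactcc
FOSB, chr19:45467746-45467995, plus strand: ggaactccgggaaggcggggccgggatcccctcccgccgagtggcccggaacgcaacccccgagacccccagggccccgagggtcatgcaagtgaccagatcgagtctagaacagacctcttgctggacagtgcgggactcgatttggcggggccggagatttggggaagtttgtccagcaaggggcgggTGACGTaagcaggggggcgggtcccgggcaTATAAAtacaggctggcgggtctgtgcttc
In both windows a TGACGT match stands upstream of a TATAAA match, at -64 and -33 in FOS and at -60 and -30 in FOSB, counted from the first transcribed base to the first base of the match. Searched on both strands, TGACGT occurs in 7.1% and TATAAA in 10.7% of 35116 windows of the same length. The full element TGACGTCA, which contains TGACGT on both strands, occurs in 1.65% of windows, among them those of JUND (at -200) and MAFF (at -54). No TGANTCA, the AP-1 sequence, was present in the windows of the 8 members that had one (6.57% of all windows hold it).

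FOSL1 and FOSL2 encode FRA1 and FRA2, the FOS-type subunits that lack the strong activation domain of FOS. FOSL1 (chromosome 11, 65892049 to 65900573, minus strand) had 585 and 729 counts in PIG-LONA and 518 and 602 counts in PIG-EMPTY. This gave 19.5 and 19.0 CPM in PIG-LONA, against 17.4 and 18.5 CPM in PIG-EMPTY, so that both PIG-LONA libraries lay above both PIG-EMPTY libraries. The difference was small and did not pass (log2 fold change 0.10 ± 0.07, SE; 95% interval -0.05 to 0.25; edgeR adjusted p = 0.524). FOSL2 (chromosome 2, 28392448 to 28417312, plus strand) had the most counts of all members, 4521 and 6113 in PIG-LONA and 4655 and 5359 in PIG-EMPTY. Its levels of 151 and 159 CPM in PIG-LONA overlapped the 156 and 165 CPM in PIG-EMPTY. With a log2 fold change of -0.05 ± 0.04 (SE) and a 95% interval from -0.14 to 0.04, the interval of FOSL2 does not reach the -0.38 of FOS.

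Divided by exon length, FOS and FOSL1 stood at nearly the same level, and their order differed between the groups. This order depends on the annotated exon lengths used, 3238 bases for FOS and 1887 for FOSL1. In CPM, before that division, FOS was above FOSL1 in every library. FOS had 8.44 and 8.21 CPM per kb in PIG-LONA, against 10.4 and 10.0 CPM per kb for FOSL1 in the same libraries. In PIG-EMPTY the values were 11.0 and 10.7 CPM per kb for FOS and 9.22 and 9.82 CPM per kb for FOSL1. The ratio of FOS to FOSL1 was thus 0.815 and 0.817 in PIG-LONA and 1.19 and 1.09 in PIG-EMPTY. An exact two-sided permutation test gave p = 0.333 for this ratio, which is the smallest p that 2 against 2 libraries can give, and the pair was picked after its values were seen.

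The JUN genes did not pass the test. JUN, a partner with which FOS binds DNA, is a single-exon gene of chromosome 1 (58780788 to 58784327, minus strand) and had 312 and 358 counts in PIG-LONA and 346 and 316 counts in PIG-EMPTY. Its levels of 10.4 and 9.31 CPM in PIG-LONA overlapped the 11.6 and 9.73 CPM in PIG-EMPTY, and the log2 fold change was -0.12 ± 0.10 (SE; 95% interval -0.33 to 0.10; edgeR adjusted p = 0.609). The window before its RefSeq start, which lies within the span given here, holds TGACATCA at -67. This is the variant element through which JUN dimers are known to act on the JUN gene. That sequence occurs in 2.37% of all windows.

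JUNB, which can oppose JUN on some promoters and restrains myeloid proliferation in mice, had 2536 and 3243 counts in PIG-LONA and 2626 and 2862 counts in PIG-EMPTY. These corresponded to 84.7 and 84.3 CPM in PIG-LONA, against 88.2 and 88.1 CPM in PIG-EMPTY. The groups did not overlap and the libraries within each lay close together, but the difference was small and did not pass (log2 fold change -0.06 ± 0.04, SE; 95% interval -0.15 to 0.03; edgeR adjusted p = 0.489). JUNB is a single-exon gene of chromosome 19 (12791496 to 12793315, plus strand). Exons annotated to HOOK2 on the opposite strand cover 14.2% of its length, and since the strand setting of the counting is not given in the sources used here, some reads could have been dropped or shared between both.

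JUND, the JUN-type subunit that is typically expressed in resting cells, lies on the same chromosome (18279760 to 18281622, minus strand). It had 1337 and 1563 counts in PIG-LONA and 1283 and 1329 counts in PIG-EMPTY, or 44.7 and 40.6 CPM in PIG-LONA and 43.1 and 40.9 CPM in PIG-EMPTY. The values of the groups overlapped, with a log2 fold change of 0.02 ± 0.06 (SE; 95% interval -0.10 to 0.14; edgeR adjusted p = 0.910).

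**Figure D2:**
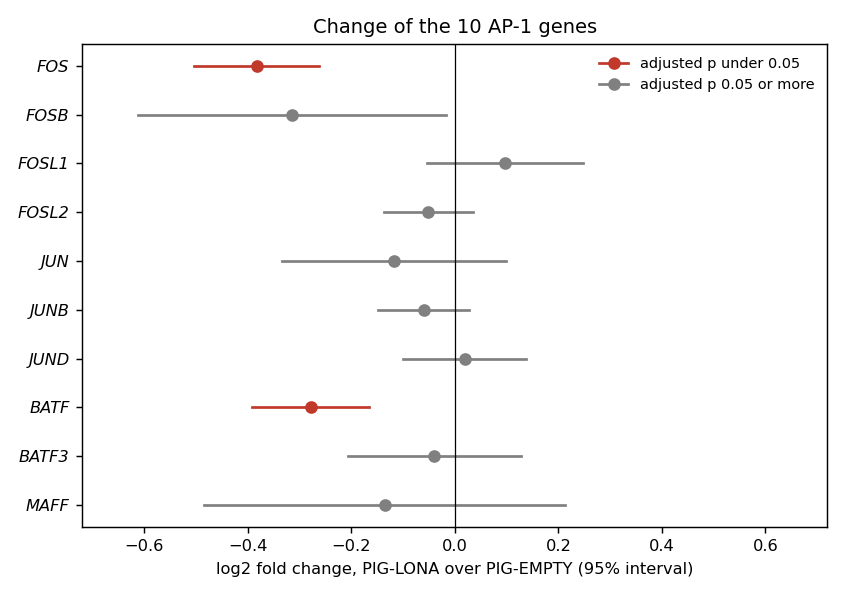
Log2 fold change of each AP-1 gene, PIG-LONA over PIG-EMPTY (horizontal axis), with its 95% interval from the edgeR fit; red marks an adjusted p under 0.05. FOS at -0.38 and BATF at -0.28 passed, while FOSB at -0.31 has a wider interval and did not.

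BATF encodes a small zipper protein that pairs with JUN proteins in place of FOS and, in lymphocytes and dendritic cells, acts together with the factors IRF4 and IRF8. Its gene lies on chromosome 14 (75522425 to 75547015, plus strand), 240 kb beyond FOS. It had 1164 and 1417 counts in PIG-LONA and 1333 and 1523 counts in PIG-EMPTY. The levels were 38.9 and 36.9 CPM in PIG-LONA, against 44.8 and 46.9 CPM in PIG-EMPTY, and the groups did not overlap. Their means of 37.9 ± 1.44 CPM in PIG-LONA and 45.8 ± 1.5 CPM in PIG-EMPTY (SD, n = 2 each) gave a fold of 0.825 (log2 fold change -0.28 ± 0.05, SE; edgeR adjusted p = 0.00271). The fold over the 4 pairings of libraries ran from 0.786 to 0.869. BATF lost its call without PIG-EMPTY replicate 2 (log2 fold change -0.24, edgeR adjusted p = 0.0699) and without the filter on low counts (-0.27, edgeR adjusted p = 0.0531), and kept it under the other 13 alternatives.

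The promoter window of BATF is given for comparison with that of FOS, since both genes fell. It covers the 250 bases before the start (RefSeq, GRCh38.p14, 5′ to 3′), and is all in lower case because no searched motif is present. As for FOS, the RefSeq start lies within the GENCODE span of the gene, so the window reaches into that span.
BATF, chr14:75522219-75522468, plus strand: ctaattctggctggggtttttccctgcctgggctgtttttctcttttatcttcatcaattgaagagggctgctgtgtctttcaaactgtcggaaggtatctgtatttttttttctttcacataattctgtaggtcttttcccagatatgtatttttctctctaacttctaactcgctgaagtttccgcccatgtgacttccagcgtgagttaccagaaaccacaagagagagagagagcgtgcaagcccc
The FOS window holds TGACGT and TATAAA, and the BATF window holds none of the searched motifs. Other elements and sequence outside these 250 bases were not searched, and a link of promoter sequence to the falls was not tested.

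FOS and BATF are neighbours, with JDP2 between them. JDP2 encodes a further zipper protein that pairs with JUN proteins. It had 22.3 ± 1.19 CPM in PIG-LONA and 24.0 ± 0.30 CPM in PIG-EMPTY (SD, n = 2 each), or -0.10 on the log2 scale, with an SE of 0.07 (edgeR adjusted p = 0.437). Within 500 kb of the pair on either side 20 other genes were tested, and 0 of them passed in either direction, beside 6.44% of all tested genes. Their median log2 fold change was -0.01. They include LINC01220 (-0.05 ± 0.25) and JDP2-AS1 (-0.49 ± 0.29), which like JDP2 lie between FOS and BATF. The estimates of these genes in between were all below 0, and none passed. For JDP2 and JDP2-AS1 both PIG-LONA libraries lay below both PIG-EMPTY libraries, beside 24.4% of all tested genes. The same held for NEK9, TMED10 and TTLL5 outside the interval, while for YLPM1, DLST, PGF and EIF2B2 both PIG-LONA libraries lay above. On chromosome 14 as a whole 2.66% of 526 tested genes were lower and the median was -0.02. Chromosome 6, by comparison, had a median of 0.17 and 226 higher genes among 799 tested.

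**Figure D3:**
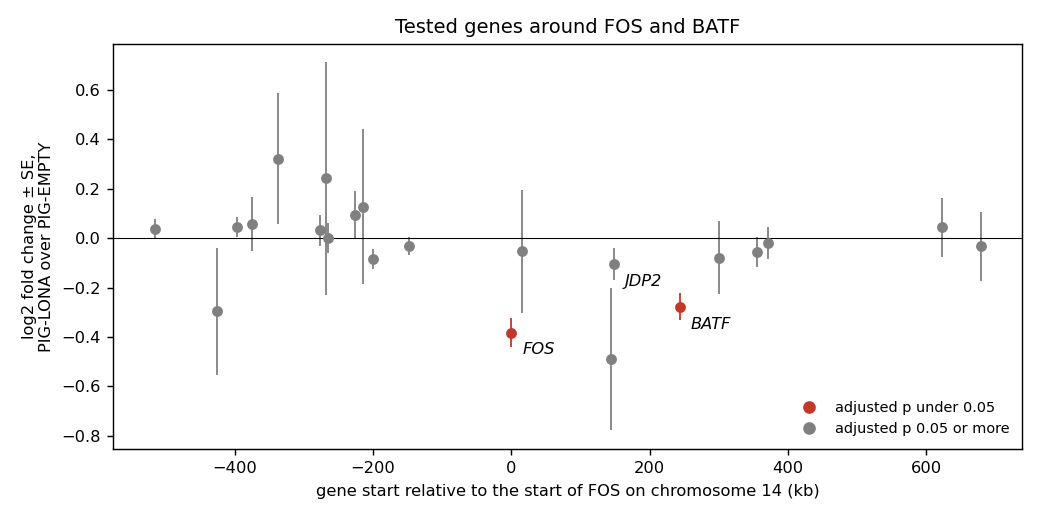
Log2 fold change, PIG-LONA over PIG-EMPTY (vertical axis, with SE), of the tested genes within 500 kb of FOS and BATF, against the distance of each gene start from that of FOS in kb; red marks an adjusted p under 0.05. FOS and BATF are the genes that passed, and the other 20 scatter around a median of -0.01.

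BATF3, the relative of BATF known for its part in the development of conventional dendritic cells in mice, did not differ beyond the spread of the libraries. This gene of chromosome 1 (212686418 to 212699985, minus strand) had 505 and 589 counts in PIG-LONA and 510 and 515 counts in PIG-EMPTY. Its 16.9 and 15.3 CPM in PIG-LONA overlapped the 17.1 and 15.9 CPM in PIG-EMPTY (log2 fold change -0.04 ± 0.08, SE; 95% interval -0.21 to 0.13; edgeR adjusted p = 0.861). MAFF, a small MAF protein that pairs with CNC-type factors such as NRF2 and BACH1, was the member with the fewest counts. On chromosome 22 (38200767 to 38216511, plus strand), it had 94 and 136 counts in PIG-LONA and 95 and 135 counts in PIG-EMPTY. Its levels were 3.14 and 3.54 CPM in PIG-LONA and 3.19 and 4.16 CPM in PIG-EMPTY, and the log2 fold change of -0.14 ± 0.17 (SE) had a 95% interval from -0.48 to 0.21, and this interval includes the value of FOS. MAFF overlaps the span of PLA2G6 on the opposite strand without shared exonic bases, and FOSL2 in the same way that of FLJ31356.

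Per length, JUNB and BATF were the most abundant AP-1 transcripts and FOSB and MAFF the scarcest. Over all 4 libraries JUNB averaged 47.4 CPM per kb (range 46.3 to 48.5) and BATF 42.7 (37.6 to 47.8), and their ranges overlapped. JUND at 22.7 and FOSL2 at 22.1 CPM per kb overlapped too, as did FOSL1 at 9.86 and FOS at 9.59. BATF3 at 6.01 and JUN at 2.90 CPM per kb were each separate from their neighbours in this order, and FOSB at 0.761 overlapped MAFF at 0.624. JUNB alone made up 29.0% and 29.7% of the summed length-scaled level of the members in PIG-LONA, and 28.4% and 28.1% in PIG-EMPTY. For BATF these shares were 24.7% and 24.1% in PIG-LONA, against 26.8% and 27.8% in PIG-EMPTY. The lengths are those of all annotated exons together, so a gene of which a short isoform is mainly used would be placed too low.

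The 4 FOS-type genes together had 40.6 and 41.2 CPM per kb in PIG-LONA, against 42.9 and 44.4 CPM per kb in PIG-EMPTY. The 3 JUN-type genes had 73.5 and 70.8 CPM per kb in PIG-LONA and 74.9 and 73.1 CPM per kb in PIG-EMPTY. The ratio of FOS-type to JUN-type transcripts was 0.552 and 0.582 in PIG-LONA and 0.573 and 0.608 in PIG-EMPTY, overlapping between groups. Group means of 0.567 ± 0.02 in PIG-LONA and 0.590 ± 0.02 in PIG-EMPTY (SD, n = 2 each) did not differ beyond the spread of the libraries (exact two-sided permutation test, p = 0.667, where 0.333 is the smallest possible). Without FOS the ratio was 0.437 and 0.466 in PIG-LONA and 0.427 and 0.461 in PIG-EMPTY. BATF and BATF3 together had 45.9 and 43.2 CPM per kb in PIG-LONA, below the 52.0 and 53.7 CPM per kb in PIG-EMPTY.

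Among 26 other zipper genes that can pair with AP-1 or MAF subunits, 23 were tested, of which 1 fell, 1 rose and 21 did not pass (median log2 fold change -0.02). The share called was 8.7%, beside 6.44% of all tested genes. ATF6B, a factor of the unfolded protein response on chromosome 6, rose by 0.18 ± 0.04, beside a median of 0.17 for its chromosome. It was no longer called when either PIG-EMPTY library or the filter on low counts was left out. The count of falls was 2 without PIG-LONA replicate 1. MAF and BACH2 had at most 2 counts each in any library.

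Kinases, phosphatases and ubiquitin ligases that act on AP-1 proteins or on their genes moved in both directions. Of 32 tested, 3 rose, 3 fell and 26 did not pass, and their median log2 fold change was 0.00. The share called was 18.8%, beside 6.44% of all tested genes. DUSP6, a phosphatase that inactivates ERK, fell to 19.7 ± 0.50 CPM in PIG-LONA, against 26.4 ± 0.87 CPM in PIG-EMPTY (SD, n = 2 each; log2 fold change -0.42 ± 0.07, SE; edgeR adjusted p = 0.000333). RPS6KA1, a kinase downstream of ERK, fell by 0.17 ± 0.04 and was not called when either PIG-EMPTY library or the filter on low counts was left out. MAPK10, a JNK gene mainly of neurons, was called on 3 and 8 counts in PIG-LONA and 10 and 26 in PIG-EMPTY. Its call was lost without PIG-LONA replicate 1, PIG-EMPTY replicate 2, the genes of chromosome 6 or the filter on low counts. MAPK10 was also not called with library totals or limma-voom, and DESeq2 gave no adjusted p for it. The 3 that rose, MAP3K5 (0.31 ± 0.08), MAPK14 (0.15 ± 0.04) and MAP3K7 (0.16 ± 0.04), are stress kinase genes that all lie on chromosome 6, whose genes as a whole had a median of 0.17 (the part of that shift in these calls was not tested). MAP3K7 and MAPK10 were named with their values in view. DESeq2 called 0 rises, and without the filter on low counts there were 0 rises and 1 fall. Leaving out PIG-EMPTY replicate 2 left 0 rises and 1 fall, and leaving out PIG-EMPTY replicate 1 or PIG-LONA replicate 2 left 1 rise. The JNK genes MAPK8 and MAPK9, whose products phosphorylate JUN, were at 0.00 and -0.03 and did not pass, nor did the ERK gene MAPK3 (-0.01).

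None of 9 genes for factors that act at the FOS promoter passed the edgeR test (median 0.01, and 1 had an unadjusted p under 0.05). Over all tested genes 6.44% passed, so a list this short can hold none. SRF, which binds the serum response element, had 90.0 ± 0.39 CPM in PIG-LONA and 84.1 ± 3.53 CPM in PIG-EMPTY (SD, n = 2 each; log2 fold change 0.10 ± 0.04, SE; edgeR adjusted p = 0.231), and lies on chromosome 6. ELK3, a partner of SRF, was at -0.09 ± 0.05. The count for this list was 0 with DESeq2 and 1 without PIG-LONA replicate 1.

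Other immediate early and stress genes, which are often induced together with FOS, went both ways. Of 30 tested, 3 rose, 2 fell and 25 did not pass, with a median log2 fold change of 0.01. The share called was 16.7%, beside 6.44% of all tested genes. ZFP36L1, which promotes the decay of AU-rich messenger RNAs, fell to 17.4 ± 0.45 CPM in PIG-LONA, against 27.9 ± 1.28 CPM in PIG-EMPTY (SD, n = 2 each; log2 fold change -0.69 ± 0.07, SE; edgeR adjusted p = 1.91e-06), and the antiproliferative gene BTG2 fell by 0.26 ± 0.06. EGR1, another immediate early gene, was higher, at 55.1 ± 0.67 CPM in PIG-LONA and 48.4 ± 1.13 CPM in PIG-EMPTY (0.19 ± 0.05; edgeR adjusted p = 0.0228). EGR1 was named after its values were seen, and was not called by DESeq2 or when either PIG-EMPTY library or the filter on low counts was left out. The heat shock genes HSPA1B (0.32 ± 0.06) and HSPA1A (0.20 ± 0.05) rose as well, but they are near-identical copies on chromosome 6 between which reads can be split. With PIG-EMPTY replicate 2 left out neither BTG2 nor HSPA1A was called, and with PIG-EMPTY replicate 1 left out BTG2 was not. DESeq2 called neither, nor did edgeR without the filter on low counts, and over the list each of these settings called 1 rise and 1 fall. Leaving out PIG-EMPTY replicate 2 left 1 rise and 1 fall, leaving out PIG-EMPTY replicate 1 left 1 fall, leaving out PIG-LONA replicate 2 gave 7 rises and leaving out PIG-LONA replicate 1 gave 4 falls.

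Of 25 textbook targets of AP-1, 22 were tested, of which 6 fell, 0 rose and 16 did not pass, beside 3.51% lower and 2.93% higher over all tested genes. Their median log2 fold change was -0.12, and in 15 of the 22 both PIG-LONA libraries lay below both PIG-EMPTY libraries, beside 24.4% of all tested genes. Because the list was chosen with earlier results of these data known, these counts cannot be read as an enrichment. MMP9, the gelatinase whose promoter holds classical AP-1 sites, stood at 37.4 ± 1.60 CPM in PIG-LONA and 69.5 ± 0.02 CPM in PIG-EMPTY (SD, n = 2 each). The chemokine gene CCL2 fell to 6.91 ± 0.20 CPM in PIG-LONA, against 11.1 ± 0.82 CPM in PIG-EMPTY (log2 fold change -0.69 ± 0.10, SE; edgeR adjusted p = 0.000231). VIM, the intermediate filament vimentin, fell by 0.25 ± 0.03 and the integrin gene ITGAX by 0.60 ± 0.13. The adhesion receptor gene CD44 (-0.12 ± 0.04) and the haem oxygenase gene HMOX1 (-0.56 ± 0.17) complete the 6 and were named with their values in view. DESeq2 called none of CD44, HMOX1 and ITGAX. CD44 was also not called when either PIG-EMPTY library was left out, and HMOX1 when PIG-LONA replicate 1 or PIG-EMPTY replicate 2 was. Neither was called without the filter on low counts or without the genes of chromosome 6, nor was HMOX1 with library totals or limma-voom. The 16 that did not pass ran from SPP1 (-1.04 ± 0.40, at under 1 CPM in every library) to CCL3 (0.26 ± 0.27), with MMP1 at -0.38 ± 0.12, PLAU at -0.33 ± 0.16, PTGS2 at -0.28 ± 0.11 and ICAM1 at -0.22 ± 0.09 on the low side, MT2A at 0.24 ± 0.08 on the high side, and TNF at 0.00 ± 0.05. Several of the falling genes are monocyte or macrophage genes too, and ANPEP, LYZ and SPI1 of the line's own markers were lower in the same libraries, LYZ and SPI1 with the losses of call given above. The part of either in the other was not tested. The number of falls was 3 with DESeq2 and 10 without PIG-LONA replicate 1, and 1 target rose without PIG-LONA replicate 2.

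Targets of NRF2 and BACH1, the factors that pair with small MAF proteins, went both ways. All 16 were tested, of which 2 rose, 3 fell and 11 did not pass, with a median log2 fold change of 0.00. The share called was 31.2%, beside 6.44% of all tested genes. The rises were AKR1C2 (0.91 ± 0.07) and AKR1C1 (0.61 ± 0.07), close paralogs whose reads cannot be split with certainty. SLC7A11, the cystine transporter, fell to 22.0 ± 0.39 CPM in PIG-LONA, against 32.1 ± 0.95 CPM in PIG-EMPTY (SD, n = 2 each; log2 fold change -0.55 ± 0.06, SE; edgeR adjusted p = 1.12e-05), and the quinone reductase gene NQO1 fell by 0.38 ± 0.05. HMOX1 is the remaining one. The genes of NRF2 (NFE2L2, 0.02 ± 0.05) and BACH1 (-0.06 ± 0.06) and of the small MAF proteins MAFG (0.01 ± 0.04) and MAFK (-0.01 ± 0.05) did not pass, as was the case for MAFF.

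**Figure D4:**
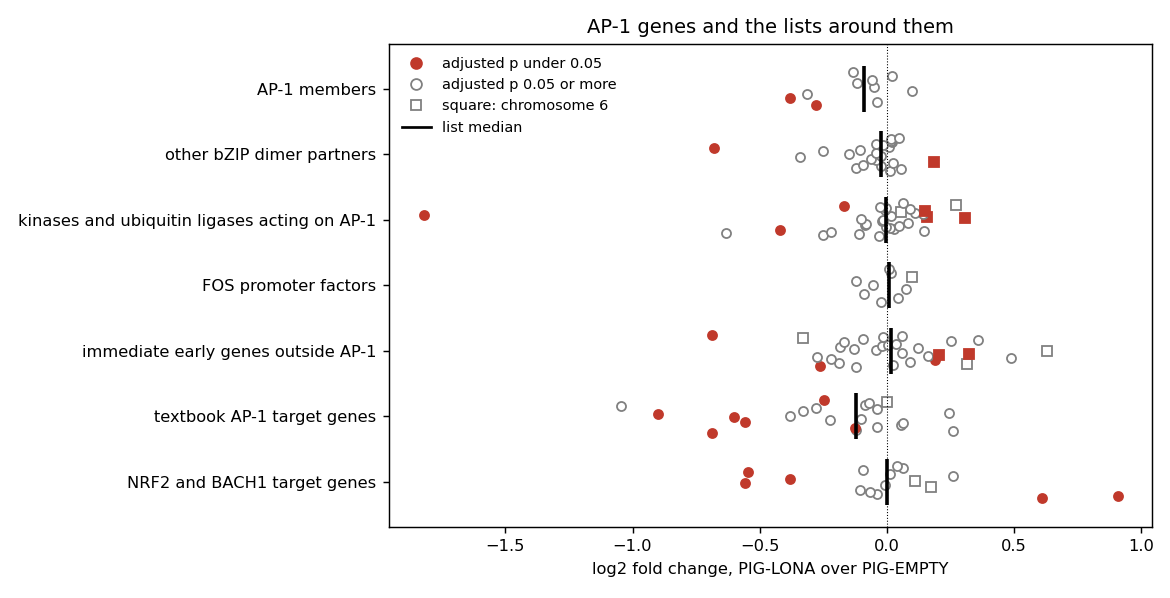
Log2 fold change, PIG-LONA over PIG-EMPTY (horizontal axis), of the tested genes of the AP-1 set and of each surrounding list (rows); filled symbols have an adjusted p under 0.05, squares are genes of chromosome 6 and bars are list medians. The medians of the AP-1 set (-0.09) and of its textbook targets (-0.12) lie below 0, and the other 5 lists plotted have medians between -0.02 and 0.01. The markers of the line, which are not plotted, had a median of -0.10. The AP-1 set and the lists were chosen with earlier results of these data known.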

How the data were processed

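Libraries of polyadenylated RNA were made with a directional NEBNext kit, per the labels' protocols. The authors deposited raw counts per Ensembl gene, with a column for each library. Per the submitters' processing notes the build was hg38 and the tools included STAR 2.5, HTSeq and FastQC 0.11.4, while neither the annotation release nor the strand setting is stated there. A symbol was found for 60402 of 67062 rows, and all 10 members matched 1 row each. Positions and exon lengths are those of GENCODE 29 (GRCh38, which hg38 is another name for) and may differ slightly from the release used for counting. Promoter windows came from RefSeq, which held one or more for 8 members.

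Genes were kept by filterByExpr (minimum count 10, minimum total 15). Counts were scaled by TMM and tested with edgeR 4.0.16 in R 4.3.3 (estimateDisp, glmQLFit with legacy off, glmQLFTest) for the effect of the group. Tests were two-sided and p-values were adjusted by the Benjamini-Hochberg method over the 15918 genes kept. The SE is the size of the log2 fold change divided by the square root of F, and intervals use the moderated degrees of freedom and cover no multiple testing. The biological coefficient of variation was 2.95%. Replicates differed beyond counting noise (mean chi-square of a gene 4.32 for PIG-LONA and 1.77 for PIG-EMPTY, where noise gives about 1), so both of each were kept as separate samples. The test was checked on simulated counts. Alternatives were DESeq2 1.42.0 (size factors, Wald test), limma 3.58.1 (voom), other scalings and filters, the legacy edgeR form, a replicate block, omission of each library, adjusted p under 0.01 and, chosen after seeing the data, leaving out chromosome 6 genes.

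The members and lists were chosen with earlier results of these data known. All members are named. From each other list up to 4 genes with the smallest p among those called are named, or up to 2 where none was called, with further genes marked in the text. Differences between members in their change were not tested, apart from the ratios given. Individual values of a few listed genes are not reported here.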

Additional observations from a re-analysis of the deposited data

How the results depend on the processing

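FOS kept its direction and its call under all 15 alternatives (edgeR, DESeq2 and limma adjusted p from 9.92e-08 to 0.0164). The number of members called, all of them lower, was 2 in the main test and under 13 alternatives, 1 without the filter on low counts, and 1 to 2 when each library was left out. No call was made or lost among FOSB, FOSL1, FOSL2, JUN, JUNB, JUND, BATF3 and MAFF. With each library left out, uncalled values that changed sign ran from -0.242 to 0.0147 for JUN, -0.0453 to 0.0916 for JUND, -0.104 to 0.0366 for BATF3 and -0.305 to 0.0756 for MAFF. The FOS-type to JUN-type ratio of PIG-LONA over that of PIG-EMPTY was 0.960, 1.02 without FOS, and 0.933 to 0.989 with each library left out.

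Over all genes 1025 were called (467 higher, 558 lower). The count was 473 with the DESeq2 Wald test (219 and 254), 334 without the filter on low counts (140 and 194), 528 at adjusted p under 0.01 (228 and 300) and 660 without chromosome 6 genes (219 higher). With each library left out it ran from 466 to 2331 (157 to 1222 higher, 309 to 1109 lower), the lowest without PIG-EMPTY replicate 2 and the highest without PIG-LONA replicate 1. The causes were not tested, other than that fewer genes or samples entered some fits. No scaling moved the median of all genes by as much as 0.01. With the replicate number as a block 1101 genes and 2 members were called. Deviations of same-numbered libraries had a correlation of 0.05 and the labels do not tie the numbers together, so the block describes no known pairing. With 2 libraries per group and about 100 counts per library, FOSB and MAFF had the widest intervals of the members.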
